A study of Mus musculus with 24 samples.

Results

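The genes described here are 5 histone lysine demethylase genes of the mouse, Kdm1a, Kdm1b, Kdm5a, Kdm5b and Kdm7a, out of 21887 protein-coding genes on chromosomes 1 to 19, X and Y. They were chosen by name, with peaks of these same libraries already known, so their peaks are given as a description and with no test. A peak belonged to a gene when it overlapped the span of the gene in the RefSeq annotation of GRCm38 or the 2500 bp on either side of it. Under that rule the 16 H3K4me1 and H3K4me2 lists held 57 peaks at the 5 genes, of which 42 were H3K4me2 and 15 were H3K4me1.

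The study profiled PRDM16, a zinc finger and PR domain protein, together with H3K4me1 and H3K4me2 by CUT&RUN, in which a nuclease tethered to an antibody releases the bound chromatin for sequencing. The 24 libraries fell into 12 groups of 2: each antibody was used on wild-type and Prdm16 KO cells, as ES cells and as day 6 embryoid bodies (EB), all of C57BL/6 background. ES cells were grown on Matrigel in a medium with LIF and serum replacement, and EB in a serum medium. The labels name neither the deletion, nor the number of KO clones, nor a separate culture for each of the 2 libraries in a group, so the spread between them may be technical.

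Methylation of lysine 4 of histone H3 marks active or poised DNA: the dimethyl form covers promoters and enhancers, and the monomethyl form covers mainly enhancers. KDM1A (LSD1) and KDM1B (LSD2) are flavin-dependent amine oxidases that remove mono- and dimethyl groups from this lysine. KDM1A works in CoREST and histone deacetylase complexes and is known in ES cells for switching off enhancers on differentiation, while KDM1B is known for its role in oocytes. KDM5A and KDM5B are JmjC domain enzymes that remove tri- and dimethyl groups from the same lysine. KDM7A, also a JmjC enzyme, carries a PHD finger that reads methylated lysine 4 but acts on methyl groups at lysines 9 and 27. The libraries measured marks on the genes of these enzymes, not the enzymes, their RNA or their activity.

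The starts of 4 of the 5 genes could be read as sequence, from RefSeq promoter windows of GRCm38.p6 that reach from 250 bases before a listed start to 50 bases after it. No window was found for Kdm5a, and its strand is not given here. The sequences are shown for their content of CpG. It differs among the 4 starts, and H3K4me2 followed it across all genes, though mostly among starts with little CpG. Capitals mark each CpG, letters run 5′ to 3′ on the strand of the gene, and each stretch ends at the last base before the gene's span. The stretches are unequal parts of the windows, 186 bases at Kdm1a, 34 at Kdm1b and 250 at Kdm5b and Kdm7a. The one at Kdm1b leaves out most of its window and with it all 26 CpG counted there.

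Kdm1a, chr4:136602788-136602973, minus strand: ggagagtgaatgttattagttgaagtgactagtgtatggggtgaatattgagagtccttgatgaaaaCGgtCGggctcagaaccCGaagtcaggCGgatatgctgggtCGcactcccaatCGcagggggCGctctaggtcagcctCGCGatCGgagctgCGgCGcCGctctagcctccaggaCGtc
Kdm1b, chr13:47043339-47043372, plus strand, between the spans of Tpmt and Kdm1b: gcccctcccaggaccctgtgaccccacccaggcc
Kdm5b, chr1:134559928-134560177, plus strand, inside the span of Mgat4e: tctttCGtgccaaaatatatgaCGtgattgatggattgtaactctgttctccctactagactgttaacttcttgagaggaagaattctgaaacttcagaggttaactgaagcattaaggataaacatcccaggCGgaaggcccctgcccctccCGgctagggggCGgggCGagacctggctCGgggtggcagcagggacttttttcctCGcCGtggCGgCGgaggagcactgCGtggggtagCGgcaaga
Kdm7a, chr6:39206774-39207023, minus strand: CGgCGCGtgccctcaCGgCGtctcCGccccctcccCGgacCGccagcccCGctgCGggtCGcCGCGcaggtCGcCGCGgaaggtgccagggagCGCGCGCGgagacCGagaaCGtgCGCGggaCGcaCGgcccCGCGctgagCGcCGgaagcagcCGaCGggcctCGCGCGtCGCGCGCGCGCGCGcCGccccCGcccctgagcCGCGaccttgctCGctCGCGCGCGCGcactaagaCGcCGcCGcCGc

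Kdm7a had 65 CpG in its 300-base window, a density that only 0.0141% of 21263 protein-coding windows reached. The windows of Kdm1a, Kdm1b and Kdm5b held 29, 26 and 17 CpG, against a median of 13 over all windows. The GC box, searched as GGGCGG on both strands, occurred 6 times in the window of Kdm1b, 3 times in that of Kdm7a, once in that of Kdm5b and not in that of Kdm1a. Of all windows, 46.2% held it. When genes were cut into 5 equal groups by CpG, in the highest group, 58.3% carried H3K4me2 at most 2500 bp from the listed start in all 8 lists, against 1.86% in the lowest. Counted from the lowest as 1, Kdm1a and Kdm7a lie in group 5, Kdm1b in group 4 and Kdm5b in group 3. The share was 12.8% in group 2, 48.7% in group 3 and 56.8% in group 4, so these groups hardly separate the 4 starts. Kdm1a of group 5 was marked near its listed start in 4 of 8 lists, and Kdm1b of group 4 in 8.

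The lists differed in size, which bears on every comparison that follows. Between 13818 and 32874 peaks were listed per H3K4me2 library (39.1 to 81.0 Mb in all), between 5990 and 15435 per H3K4me1 library (13.1 to 37.1 Mb) and between 146 and 586 per PRDM16 library. The second H3K4me2 libraries of KO ES cells and of wild-type EB belong to another library series by their titles than the other 14 H3K4me libraries, and their lists covered the most at their stage. In ES cells the KO lists of H3K4me2 covered 78.3 and 81.0 Mb and the wild-type lists 65.5 and 59.2 Mb, whereas in EB the KO lists covered 39.1 and 39.2 Mb and the wild-type lists 47.7 and 62.6 Mb. Read totals were not analysed here, and the part of list size in the results was not tested beyond the alternatives given below. Of 8 ES cell markers, 3 to 4 carried H3K4me2 at a gene end in each ES list and 1 to 5 in each EB list: Klf4, Zfp42 and Dppa4 did so in all 4 ES lists, Esrrb in 1, and Nanog, Pou5f1, Sox2 and Tdgf1 in none. In EB, Klf4 was marked in 4 lists, Pou5f1 in 3, Zfp42, Nanog and Tdgf1 in 2 each, and Dppa4, Sox2 and Esrrb in none. Of 8 EB markers, 4 to 6 were marked in each ES list and 1 to 4 in each EB list. T, Mixl1, Sox17 and Gata4 were marked in all 4 ES lists, and in 3, 4, 2 and 1 EB lists. Eomes was marked in 2 lists of each stage, Foxa2 in 2 ES lists and no EB list, and Pax6 and Sox1 in none. Neither marker set as a whole followed the stage labels. Of 4 fibroblast markers, Col1a1, Col1a2 and Thy1 were marked in all 8 lists and Postn in none. The summed H3K4me2 length at gene ends was 12.7 to 19 kb in ES and 3.08 to 18.1 kb in EB lists for the ES markers, 12.5 to 25.4 and 2.68 to 21.9 kb for the EB markers, and 7.08 to 8.37 and 9.04 to 14.1 kb for the fibroblast markers. In bulk lists such as these, fewer marked cells and less of a mark per cell cannot be told apart.

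At the gene ends, Kdm1b and Kdm7a carried H3K4me2 in all 8 lists, Kdm5b in 6, Kdm1a in 4 and Kdm5a in 2. Of all genes, 37.4% carried it in all 8 lists and 30.9% in none. H3K4me1 was sparser: Kdm7a carried it in 4 lists, Kdm5a in 2, Kdm1b in 1, and Kdm1a and Kdm5b in none, where 0.927% of all genes carried it in all 8 lists and 52.0% in none. No gene end of the 5 was wild-type-only (a peak in both wild-type lists and neither KO list) or KO-only in any of the 4 sets. The shares of all genes so called were 1.22% wild-type-only and 1.91% KO-only for H3K4me2 in ES cells, and 1.64% and 2.05% in EB. For H3K4me1 they were 1.79% and 1.31% in ES cells and 4.14% and 0.580% in EB. Beside shares this low, a count of 0 among 5 genes does not set the members apart.

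Kdm1a was the one member with an all-or-none difference between stages at a gene end: H3K4me2 covered its start in all 4 EB lists and in no ES list. The gene spans chr4:136550533-136602787, 52.3 kb, on the minus strand. In wild-type EB the peak over its start was 5717 bp wide with a score of 80.82 in the first library and 6180 bp wide with a score of 168.84 in the second. In KO EB it was 2712 bp wide with a score of 192.45 and 3697 bp wide with a score of 117.84. The score is the authors' own value for each peak, of at least 50 in each list, and ranks peaks within a list only. Both wild-type peaks were wider than both KO peaks. On the side before the start all 4 peaks ended within 0.553 kb of it, and the difference lay inside the gene, where wild-type peaks reached 5.45 and 5.63 kb from the start and KO peaks 2.49 and 3.37 kb. Over the 2500 bp either side of the gene ends alone, the 4 lists were alike, with 2701 and 2990 bp covered in wild type against 2654 and 2760 bp for KO.

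Genes called EB-only at their ends for H3K4me2 made up 3.30% of all (wild type) and 4.12% (KO), and those in all 4 EB and no ES lists 1.60%. No member was ES-only, a call shared by 4.30% of wild-type and 6.26% of KO genes. The call of Kdm1a in wild type ended when lists were limited to their higher-scoring 50%, which neither wild-type peak reached (24.2% and 45.2% of the peaks in their lists scored lower). It also ended with scores of at least 100, which the first wild-type peak missed. In KO it ended when peaks anywhere in the gene counted, because KO ES lists had a peak inside Kdm1a. Without the second EB library of wild type, or the first of KO, Kdm5a was also EB-only, making 2 members. For H3K4me1 no member had a stage call, against 6.68% ES-only and 3.67% EB-only among wild-type genes and 8.13% and 1.55% among KO genes. That count rested on single libraries: without the first ES library of wild type Kdm1b was ES-only, without the first EB library of wild type Kdm7a was ES-only and Kdm5a EB-only, without the first ES library of KO Kdm7a was ES-only, and without the second EB library of KO Kdm5a was EB-only, 1 member each.

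**Figure D1:**
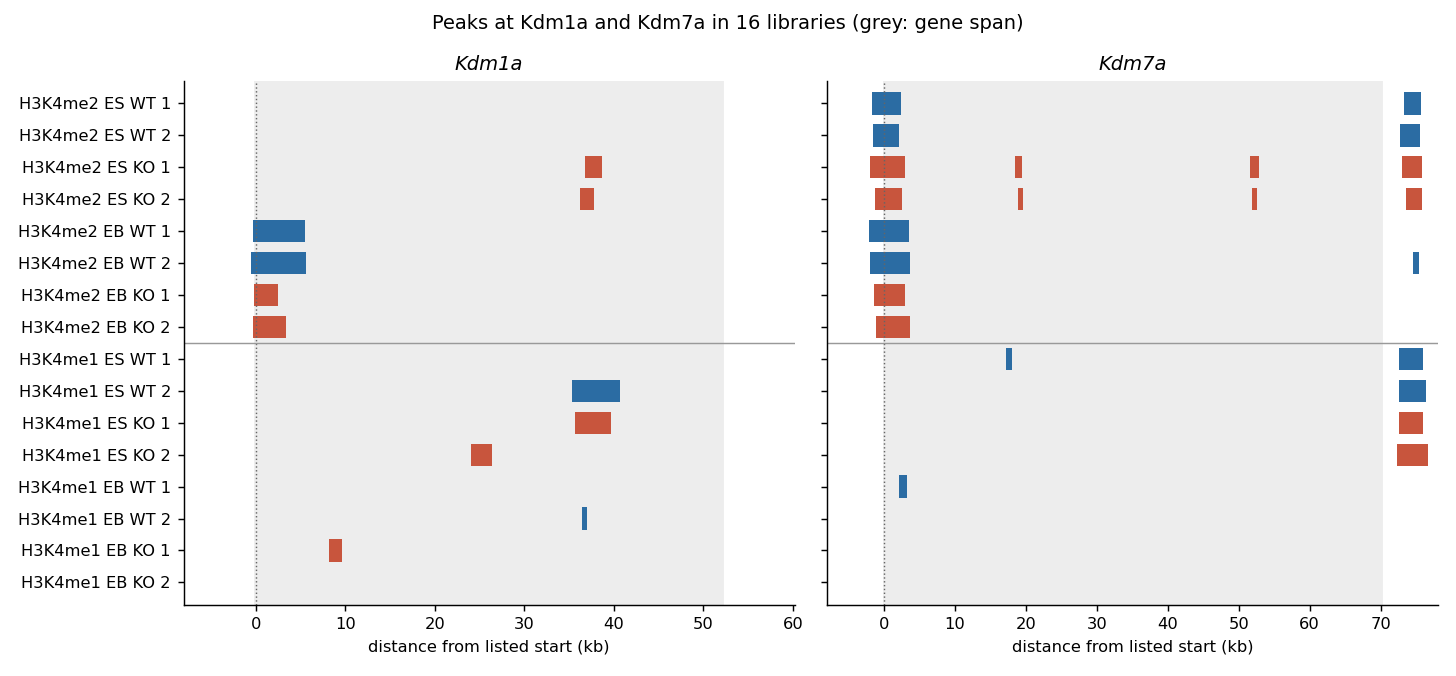
Peaks at Kdm1a and Kdm7a in the 16 H3K4me2 and H3K4me1 libraries (rows; blue, wild type; red, KO), by distance in kb from the listed start (dotted line) along the strand of the gene; grey is the gene span, and peaks outside the 2500 bp rule are drawn only for the site beyond the 3′ end of Kdm7a. H3K4me2 lies over the Kdm1a start in the 4 EB lists only, and over the Kdm7a start in all 8 lists.

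Inside Kdm1a the pattern was the reverse. An H3K4me2 peak 36.2 to 38.7 kb from the start, at chr4:136564055-136566508, was in both KO ES lists, 1908 bp wide with a score of 78.74 and 1598 bp wide with a score of 91.92, and in none of the wild-type ES lists or the 4 EB lists. H3K4me1 peaks overlapped that position in the second wild-type ES library (5372 bp, score 68.42), the first KO ES library (4069 bp, score 62.94) and the second wild-type EB library (542 bp, score 57.24). The site thus held H3K4me1 in lists of both genotypes. The other H3K4me1 peaks in Kdm1a were each in 1 list: one 24.1 to 26.4 kb from the start in the second KO ES library and one 8.13 to 9.59 kb from it in the first KO EB library. At its far end the gene overlaps Luzp1 by 4193 bp, and no peak of the 16 lists fell there.

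Kdm7a, 70.2 kb on the minus strand of chromosome 6 (chr6:39136620-39206773), held the highest H3K4me2 score of the 5 genes within each ES list. Within each EB list Kdm1b scored highest. The peak over the Kdm7a start was 4137 and 3740 bp wide in wild-type ES cells, with scores of 325.57 and 314.29. KO ES cells had widths of 4890 and 3773 bp and scores of 354.81 and 598.2. In EB it was 5709 and 5735 bp wide in wild type, with scores of 106.16 and 254.43, and 4402 and 4867 bp wide in KO, with scores of 188.32 and 110.58. The ES widths overlapped between genotypes, and in EB both wild-type peaks were wider than both KO peaks. KO ES lists held 2 further H3K4me2 peaks inside the gene that no wild-type list had. One lay 18.5 to 19.5 kb from the start (chr6:39187233-39188283), 942 bp wide with a score of 66.59 and 675 bp wide with a score of 65.0. The other lay 51.6 to 52.8 kb from it (chr6:39153976-39155142), 1167 bp wide with a score of 126.16 and 742 bp wide with a score of 92.01. Neither overlapped an H3K4me1 ES or H3K4me2 EB peak.

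Beyond the 3′ end of Kdm7a stood the highest-scoring H3K4me1 peak at any of the 5 genes, in ES lists alone. It lay at chr6:39130080-39134478, inside the long non-coding RNA gene 4930599N23Rik, whose span runs past the end of Kdm7a. In wild-type ES cells its H3K4me1 peaks were 3412 and 3755 bp wide with scores of 249.77 and 333.51, which rank 98 of 15435 and 19 of 12746 in their lists. In KO ES cells they were 3329 and 4399 bp wide with scores of 217.67 and 267.62, which rank 199 of 14945 and 41 of 13901. All 4 H3K4me2 ES lists had a peak there too, scoring 207.72 and 209.5 in wild type against 328.56 and 498.95 for KO. In EB the site held no H3K4me1 peak, and its single H3K4me2 peak, in the second wild-type library, was 770 bp wide with a score of 65.14. The site was therefore shared by the genotypes and differed by stage.

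The 2500 bp rule cut through this site. The H3K4me1 peaks of 3 ES libraries ended 2142 to 2430 bp from the gene and counted, and that of the first KO library ended 2505 bp from it and did not. All 5 H3K4me2 peaks of the site lay 2578 to 4456 bp away and did not count. Without the second KO ES library Kdm7a would have been wild-type-only for H3K4me1, although every ES list had the peak. Of 59758 regions merged over the 16 lists, 1.96% were in all 4 ES lists of both marks and in at most 1 of the 8 EB lists, a pattern picked after this site had been seen. The remaining H3K4me1 peaks of Kdm7a were each in 1 list, one 17.1 to 18.0 kb from the start in the first wild-type ES library and one 2.13 to 3.24 kb from it in the first wild-type EB library. Without the second wild-type EB library, the latter made Kdm7a wild-type-only for H3K4me1 in EB.

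Kdm1b, 41.9 kb on the plus strand of chromosome 13 (chr13:47043373-47085279), carried H3K4me2 over its start in all 8 lists. Its span begins 34 bp from that of Tpmt, which encodes thiopurine methyltransferase and runs the other way with a listed start 282 bp away, so a peak here lies on both gene starts. The start peak was 3309 and 4304 bp wide in wild-type ES cells, with scores of 189.92 and 143.75. KO ES cells had widths of 4991 and 3696 bp and scores of 175.8 and 385.1. In EB it was 4171 and 4024 bp wide in wild type, with scores of 218.55 and 443.66, and 3403 and 3821 bp wide in KO, with scores of 276.43 and 248.84. As at Kdm7a, the ES widths overlapped and the EB widths did not. A second H3K4me2 peak, 3.83 to 6.76 kb inside the gene (chr13:47047332-47050258), was KO-only in ES cells, 2828 bp wide with a score of 74.07 and 2291 bp wide with a score of 50.48. The latter score is at the lower limit of its list, with 0.414% of peaks lower. A further one, 11.8 to 13.1 kb inside, was in both KO and the first wild-type ES list.

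H3K4me1 at Kdm1b consisted of 3 narrow peaks in 3 wild-type lists. They were 832 bp (score 54.28) and 765 bp (score 54.89) in the ES libraries, at different places in the gene, and 523 bp (score 77.25) in the second EB library. Counting peaks anywhere in the gene or within 10000 bp of its ends, Kdm1b was wild-type-only for H3K4me1 in ES cells, and also at the gene ends without the first wild-type ES library. Both ES scores lie near the minimum of 50, with 10.1% and 11.3% of the peaks of their lists lower.

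**Figure D2:**
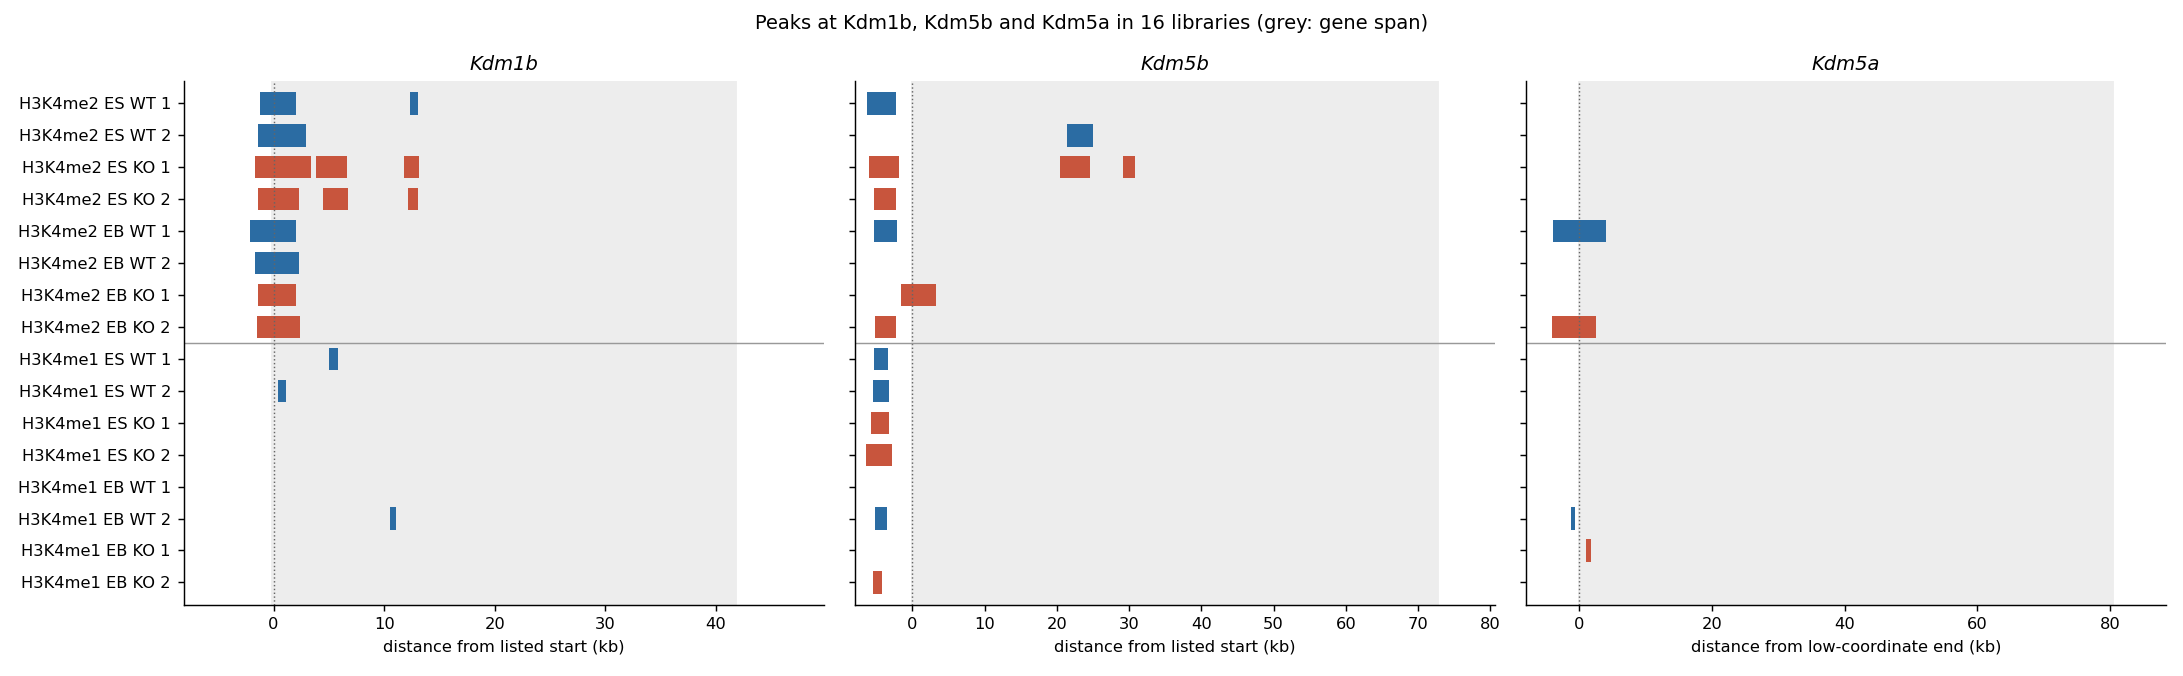
Peaks at Kdm1b, Kdm5b and Kdm5a in the 16 libraries, drawn as for Kdm1a and Kdm7a (blue, wild type; red, KO), by distance in kb from the listed start, or from the low-coordinate end for Kdm5a, whose strand is not given here. The Kdm1b start is covered by H3K4me2 in all 8 lists, while at Kdm5b most peaks lie upstream of the start, where those outside the 2500 bp rule are drawn too.

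Kdm5b, 72.7 kb on the plus strand of chromosome 1 (chr1:134560178-134632878), had H3K4me2 within 2500 bp of its ends in 6 lists, but over its start in 1 only. That peak was in the first KO EB library, 4817 bp wide with a score of 69.37. In 5 other lists the peak lay upstream, ending 1807 to 2266 bp before the start, inside the span of Mgat4e, which overlaps the first 1569 bp of Kdm5b. These 5 peaks were 2978 to 4175 bp wide and had scores from 50.19 in the second KO EB library to 148.92 in the second KO ES library. H3K4me1 peaks covered the same upstream site in all 4 ES lists and in the second library of each EB genotype, yet none counted, as they ended 2782 to 4232 bp before the gene. The H3K4me1 scores there were 90.29 and 66.52 in wild-type ES cells, 50.66 and 91.72 in their KO counterparts, and 61.3 and 58.97 in the EB libraries. The upstream site (chr1:134553769-134558371) was thus in 11 of the 16 lists, and the absence of H3K4me1 at Kdm5b holds for the 2500 bp rule only. Inside the gene, H3K4me2 was found 20.4 to 25.0 kb from the start in the second wild-type and first KO ES libraries and 29.2 to 30.8 kb from it in the first KO ES library. Without the first wild-type library, Kdm5b was KO-only for H3K4me2, as 1 of the 5 members, in ES cells and in EB.

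Kdm5a, 80.5 kb on chromosome 6 (chr6:120364099-120444574), had the fewest peaks, 4 H3K4me peaks in EB and none in ES cells. All were at its low-coordinate end, which overlaps Ccdc77 by 271 bp. H3K4me2 was 7970 bp wide with a score of 54.07 in the first wild-type EB library and 6612 bp wide with a score of 117.96 in the second KO EB library. The H3K4me1 peaks were 740 bp wide with a score of 74.33 in the second wild-type EB library and 682 bp wide with a score of 51.72 in the first KO EB library. No 2 peaks of a mark came from the same genotype, so neither mark set the genotypes apart.

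Of the 8 PRDM16 lists, 7 held no peak at the 5 genes. Over all genes, of any length, 5.46% had a PRDM16 peak in any of the 8 lists under the same rule. No share for genes as long as the members is given here, so the member count cannot be called high or low. The one peak was at the same end of Kdm5a (chr6:120363209-120364581) in the second wild-type EB library, 1373 bp wide with a score of 68.13, rank 104 of 258 in its list. The first wild-type EB library did not have it, nor did the KO libraries. KO lists of this antibody were not emptier than wild-type lists. They held 586 and 499 peaks in ES cells against 331 and 191 in wild type, and 173 and 187 in EB against 146 and 258. Whether the peak reflects PRDM16 was not tested. Widening the flanks to 10000 bp added no peak.

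The length of each gene under H3K4me2 peaks, over its span plus 2500 bp on each side, brings these peaks together. At Kdm1a it was 0 kb in both wild-type ES libraries and 1.91 and 1.60 kb in KO, but 5.72 and 6.18 kb in wild-type EB and 2.71 and 3.70 kb in KO. At Kdm1b it was 3.98 and 4.30 kb in wild-type ES cells and 9.16 and 6.92 kb in KO, and 4.17 and 4.02 kb in wild-type EB and 3.40 and 3.82 kb in KO. At Kdm7a it was 4.14 and 3.74 kb in wild-type ES cells and 7.00 and 5.19 kb in KO, and 5.71 and 5.74 kb in wild-type EB and 4.40 and 4.87 kb in KO. In these 3 genes both KO libraries were above both wild-type libraries in ES cells and below both in EB. The mean differences of KO from wild type (n = 2 and 2) were 1.75, 3.90 and 2.16 kb in ES cells and -2.74, -0.486 and -1.09 kb in EB for Kdm1a, Kdm1b and Kdm7a. At Kdm5b (0.275 and 3.56 kb in wild-type ES cells, 6.41 and 0.235 kb in KO) and at Kdm5a the genotypes overlapped at each stage or were both at 0.

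**Figure D3:**
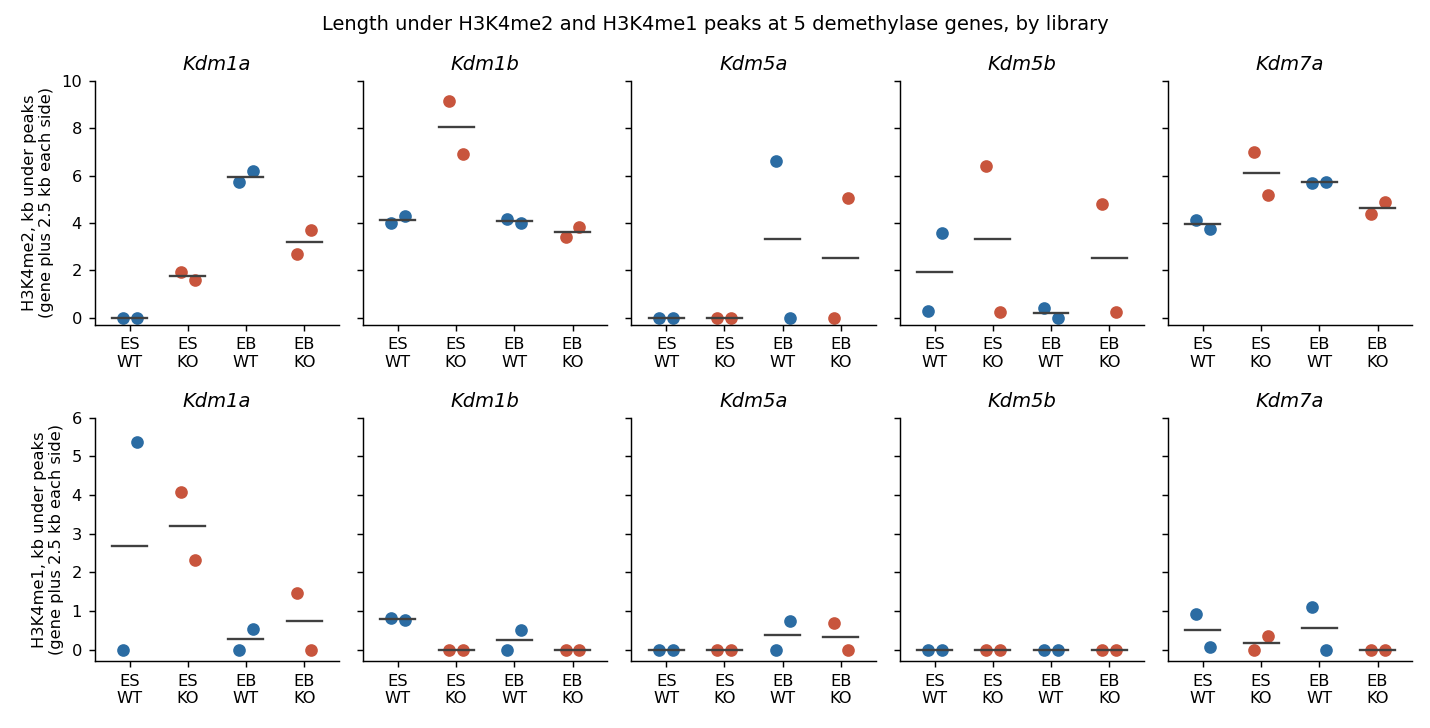
Kb under H3K4me2 peaks (top) and H3K4me1 peaks (bottom) over each gene plus 2.5 kb on each side, by library (dots; blue, wild type; red, KO), with the mean of each group of 2 as a line. For H3K4me2 at Kdm1a, Kdm1b and Kdm7a the KO dots lie above the wild-type dots in ES cells and below them in EB, a pattern that 16.5% of all genes shared.

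The same order of libraries was common among all genes, and the direction followed the size of the lists. For H3K4me2, 30.6% of genes had both KO libraries above both wild-type libraries in ES cells, 36.2% had both below in EB, and 16.5% had the 2 together. The opposite orders, which no member had, were found in 5.05% of genes in ES cells and 3.30% in EB. Among the 2642 genes as long as the members, the 3 shares were 45.8%, 49.7% and 26.0%, against 3 of the 5 members in each case. When each list was shortened to equal numbers of peaks by score, no member kept the order in ES cells, while Kdm1a, Kdm1b and Kdm7a kept it in EB. In EB this step left the differences at these 3 genes unchanged (-2.74, -0.486 and -1.09 kb) and did not equalise peak widths. It therefore could not end the order there. Among the higher-scoring 50% of each list, Kdm1b alone kept it in EB, and Kdm1a turned the other way, with 0 kb in both wild-type libraries and a mean of 3.20 kb in KO. Leaving a library out can add members to such an order but cannot remove one. Without the library of the other series, Kdm1a, Kdm1b and Kdm7a thus had to keep it, and Kdm5b joined them in ES cells and Kdm5a in EB. Divided by the Mb covered by the whole list, all 3 kept the order in ES cells and Kdm1a alone kept it in EB. Kdm5b alone took the opposite order when 1 library was left out, in ES cells without the first KO library and in EB without the first wild-type or the second KO library. For H3K4me1, Kdm1b had 0.832 and 0.765 kb in wild-type ES cells and 0 kb in both KO libraries, an order that 5.81% of genes had and that ended with equal list lengths. No member had the opposite order in ES cells (7.73% of genes) or either order in EB (2.23% with KO above and 12.7% with KO below). Leaving out 1 library gave 0 to 2 members for each of these H3K4me1 orders. The 2 members below in ES cells were Kdm1a and Kdm1b without the first wild-type library, and Kdm1b and Kdm7a without the second wild-type or the second KO library. In EB, Kdm1b and Kdm5a were below without the first wild-type library and Kdm7a without the second. Kdm1a was above without the second wild-type library in ES cells and without the second KO library in EB.

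**Figure D4:**
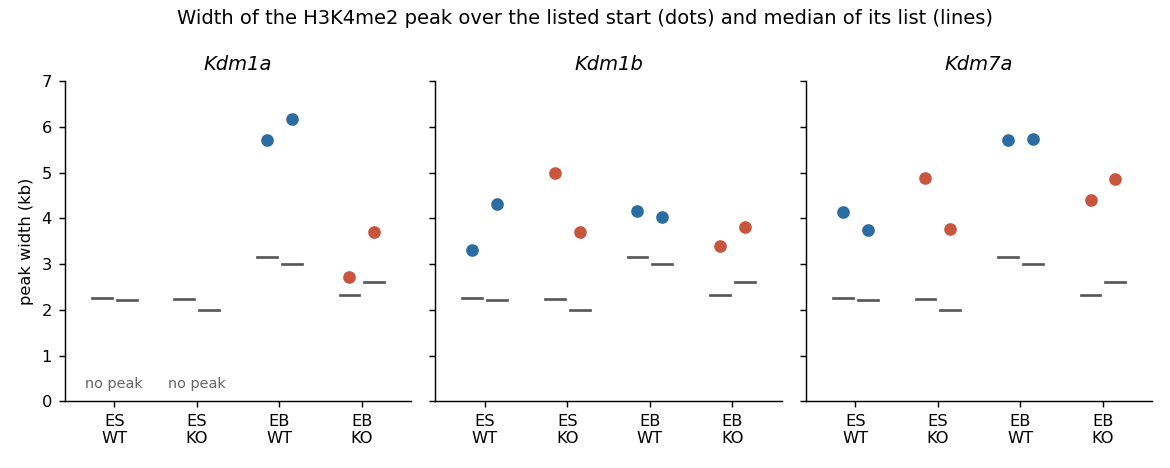
Width in kb of the H3K4me2 peak over the listed start of Kdm1a, Kdm1b and Kdm7a in each of the 8 libraries (dots; blue, wild type; red, KO) and the median peak width of the same list (grey lines). In EB both wild-type peaks are wider than both KO peaks at each of the 3 genes, and the wild-type medians are higher too.

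The ES difference lay in peaks inside the genes, and the EB difference in the width of the start peak. Mean start peak widths in EB were 5.95 ± 0.327 kb in wild type and 3.20 ± 0.697 kb in KO at Kdm1a (SD, n = 2 each), 4.1 ± 0.104 and 3.61 ± 0.296 kb at Kdm1b, and 5.72 ± 0.0184 and 4.63 ± 0.329 kb at Kdm7a. The median width over the whole list moved the same way, from 3147.5 and 3013 bp in the wild-type EB lists to 2331 and 2606 bp in the KO lists. In ES cells the start peaks were 3.81 ± 0.704 kb in wild type and 4.34 ± 0.916 kb in KO at Kdm1b, and 3.94 ± 0.281 and 4.33 ± 0.790 kb at Kdm7a, with overlapping values.

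Taken as sites, overlapping peaks of the 4 libraries of a mark and stage gave 10 H3K4me2 sites at the 5 genes in ES cells. Of these, 4 were KO-only (1 in Kdm1a, 1 in Kdm1b and 2 in Kdm7a), 0 were wild-type-only, and 2, the starts of Kdm1b and Kdm7a, were in all 4 lists. Over the genome the KO-only share of H3K4me2 ES regions was 11.7% and the wild-type-only share 1.83%. None of the 4 KO-only sites was within 2500 bp of a gene end or overlapped an H3K4me2 EB peak or a PRDM16 ES peak. Those in Kdm1a and Kdm1b overlapped H3K4me1 in 2 and 1 of the 4 ES lists. Of all 4468 KO-only regions, 13.5% lay that near a gene end, 39.6% overlapped an H3K4me1 ES peak, 16.4% an H3K4me2 EB peak and 0.224% a PRDM16 ES peak. None of these 4 sites stayed KO-only among the higher-scoring 50% of each list, with scores of at least 100 or with equal list lengths. The 1 KO-only site under each of the latter 2 settings was another one, upstream of Kdm5b, whose score was 58.06 in the first wild-type library and 115.94 and 148.92 in KO. In EB the 6 H3K4me2 sites held no KO-only or wild-type-only site, where 2.56% and 6.46% of regions were so called. H3K4me1 gave 6 sites in ES cells and 6 in EB with no such call, against 4.75% KO-only and 4.32% wild-type-only of regions in ES cells and 2.46% and 14.2% in EB. All 6 H3K4me1 sites in EB were in 1 list each, and calls there changed with single libraries. Without the first wild-type EB library 3 of 5 such sites were wild-type-only, without the second 1 was, and without the second KO EB library 2 of 6 were KO-only. Likewise 1 H3K4me2 EB site was KO-only without the second KO library, and H3K4me1 ES sites gave 1 or 2 wild-type-only calls without the first or second wild-type library and 1 KO-only call without the first KO library.

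Other genes of the pathway were taken from a list of 20 further JmjC demethylase family genes and 8 partners of KDM1 enzymes. H3K4me2 was at the ends of 10 of the 20 JmjC genes and 6 of the 8 partners in all 8 lists, among them Hdac1, Hdac2, Rcor1 and Rcor3, subunits of the CoREST deacetylase complex. The share over all genes was 37.4%. Over the 4 sets, 3 gene-end calls were wild-type-only and 4 KO-only. The shares of all genes per set ran from 1.22% to 4.14% wild-type-only and from 0.580% to 2.05% KO-only. Uty, a Y-linked relative of the H3K27 demethylase gene Kdm6a, was wild-type-only for H3K4me2 at both stages, and Hdac1 for H3K4me1 in ES cells. At both stages the KO lists of H3K4me2 held fewer peaks on chromosome Y as a whole, as given at the end. Jmjd1c, a JmjC gene of the KDM3 group, and Rcor2, the CoREST subunit gene of ES cells, were KO-only for H3K4me2 in EB, and Rcor2 and Rcor3 for H3K4me1 in ES cells. H3K4me2 length was above wild type in both KO ES libraries for 11 of the 20 and 5 of the 8, against 30.6% of all genes. It was below wild type in both KO EB libraries for 12 of the 20 and 5 of the 8, against 36.2%. Among genes as long as the 5 members these shares were 45.8% and 49.7%, a length range not matched to the 28 genes. None of the 28 genes shared the pattern of Kdm1a, H3K4me2 at a gene end in all 4 EB and no ES lists. As 1.60% of all genes had it, this count does not set Kdm1a apart from them.

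The genes most like each member were those on another chromosome or over 1 Mb away with the highest Pearson correlation of bp covered at the gene ends over the 16 H3K4me libraries, which share list sizes and, in most, zeros. For Kdm1a they were R3hdm1 (r = 0.9999), Rab1a and Zranb3 (0.9995 each), all 3 also marked in 4 lists. For Kdm1b they were Ctsl (0.9988), Kif5b (0.9976) and Fbn2 (0.9967), and for Kdm7a Kctd12 (0.9979), Pum3 (0.9978) and Ptpn23 (0.9974). Likeness was lower for Kdm5b, with Camk2n1 (0.9848), Vps52 (0.9447) and Grtp1 (0.9331), and for Kdm5a, with Got1 (0.9633), Gnb1 (0.9255) and Atp4a (0.8987).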

How the data were processed

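CUT&RUN peak lists of 24 libraries (12 groups of 2) were used as deposited by the authors, 1 list per library with chromosome, start, end, MACS peak name and a score, of unstated unit. Per the submitters' processing notes the build was mm10 and the tools Bowtie2, SAMtools 1.5, bedtools, MACS2, deepTools and HOMER 4.10, in no stated role. Read depth is unknown. Only chromosomes 1 to 19, X and Y were used, and 1-based coordinates were set against RefSeq genes of GRCm38.p6 without exons.

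A gene end was marked when a peak overlapped 2500 bp either side of it by at least 1 bp. Only-calls need both libraries of one group and neither of the other. Overlaps were counted in Python 3.11.15 with pandas 2.3.3 and NumPy 2.4.6, in scripts checked on simulated peaks. Sample groups came from titles. Members and gene lists were chosen with earlier results of these data known, so no test was made, and the smallest exact two-sided p for 2 against 2 libraries is 0.333. Named genes were the members, called genes of the lists, neighbours under peaks and 3 most alike per member. Cell type markers were 8 ES, 8 EB and 4 fibroblast genes. Alternatives covered the window, the overlap, score limits, list length, library series and each library left out. Exon, intron and UTR were not resolved.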

Additional observations from a re-analysis of the deposited data

Results flagged for a closer look

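At Kdm1a, Kdm1b and Kdm7a the H3K4me2 length of both KO libraries moved one way from wild type in ES cells and the other way in EB. The difference of KO from wild type was 1.75 kb in ES cells and -2.74 kb in EB at Kdm1a, 3.90 and -0.486 kb at Kdm1b, and 2.16 and -1.09 kb at Kdm7a. This difference between stages was not tested, and 16.5% of all genes had the same order of libraries. The lists themselves moved the same way, with KO lists covering more of the genome in ES cells and less in EB.

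The PRDM16 peak at Kdm5a in the second wild-type EB library, with a score of 68.13, stood in data that the H3K4me comparisons do not use. No KO library had a peak there, and neither did the first wild-type EB library. KO lists of this antibody held more peaks than wild-type lists in ES cells, and in EB their lengths lay within the wild-type range.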

How the results depend on the processing

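For gene-end calls between genotypes, 89 of 100 values under alternatives equalled those given above or stayed within 1.5 times of them, as did 83 of 100 for stage calls. The genotype calls given above were all 0, so only another 0 could match. With the low shares of all genes, 0 among 5 genes is a likely count in any case. The exceptions involve 1 or 2 members. For H3K4me2 in ES cells, 1 member was KO-only over the whole gene span (Kdm1a) and 1 with scores of at least 100 or equal list lengths (Kdm5b), and in EB 1 (Kdm1a) among the higher-scoring 50%. For H3K4me1 in ES cells 1 member (Kdm1b) was wild-type-only with a window of 10000 bp or over the whole span. The EB-only H3K4me2 call in wild type fell to 0 members in the higher-scoring 50% and with scores of at least 100 and rose to 2 in the main library series alone; in KO it fell to 0 over the whole span and rose to 2 with equal list lengths, and 1 member (Kdm5b) was ES-only with scores of at least 100. H3K4me1 ES-only calls rose to 1 with a window of 10000 bp in either genotype and, in wild type, in the higher-scoring 50% and with scores of at least 100. Leaving out a library can add such calls but cannot end one. Done for each library in turn, it gave 0 to 1 members for every one of these calls, except 1 to 2 for the H3K4me2 EB-only calls.

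The count of members with more H3K4me2 in both KO ES libraries fell from 3 to 0 in the higher-scoring 50%, with equal list lengths and at gene ends only, and ranged from 3 to 4 with a library left out. A library left out can add members to such an order but cannot remove any, so these ranges could not fall. The count with less in EB fell to 1 in the higher-scoring 50%, where 1 member (Kdm1a) was above instead (KO minus wild type 3.20 kb), and to 1 per Mb covered, and ranged from 3 to 4. With a library left out, the opposite H3K4me2 orders ranged from 0 to 1. For H3K4me1 in ES cells the count below fell from 1 to 0 in the higher-scoring 50%, with equal list lengths and at gene ends only, and ranged from 1 to 2, and the count above from 0 to 1. In EB these ranged from 0 to 2 and from 0 to 1. KO-only H3K4me2 sites in ES cells fell from 4 to 0, 1 and 1 in the higher-scoring 50%, with scores of at least 100 and with equal list lengths, and in EB rose from 0 to 1 in the higher-scoring 50%. With a library left out, KO-only H3K4me2 EB sites ranged from 0 to 1, H3K4me1 ES sites from 0 to 2 wild-type-only and 0 to 1 KO-only, and H3K4me1 EB sites from 0 to 3 and 0 to 2. The listed start, division by Mb covered and all site alternatives were chosen after seeing the data. Other causes of these shifts were not tested.

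Replicate numbers are not stated to pair the libraries, and no paired test was made. With the replicate block, as KO minus wild type within each number, H3K4me2 differences had 1 sign in both pairs for 3 of 5 members in ES cells and 4 of 5 in EB, and H3K4me1 differences for 1 and 0. The 3 in ES cells were Kdm1a (1.91 and 1.60 kb), Kdm1b (5.18 and 2.61 kb) and Kdm7a (2.86 and 1.45 kb). The 4 in EB were not of one direction. Kdm1a (-3 and -2.48 kb), Kdm1b (-0.768 and -0.203 kb) and Kdm7a (-1.31 and -0.868 kb) were below wild type, and Kdm5b (4.42 and 0.239 kb) was above. The pairs split at Kdm5b in ES cells (6.14 and -3.32 kb) and Kdm5a in EB (-6.61 and 5.07 kb). Where both KO libraries lie on the same side of both wild-type libraries, any pairing must give the same sign. This held for H3K4me2 at Kdm1a, Kdm1b and Kdm7a at both stages and for H3K4me1 at Kdm1b in ES cells. For these the pairs add nothing to the order already given.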

Other observations

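On chromosome Y, H3K4me2 lists of wild-type cells held 7 and 5 peaks in ES cells and 4 and 8 in EB, and those of KO cells 3 and 1 in ES cells and 2 and 3 in EB. Uty carried an H3K4me2 peak at a gene end in all 4 wild-type lists (2537 to 3251 bp covered) and in none of the 4 KO lists, and Kdm5d, the Y-linked H3K4 demethylase gene, in 1 wild-type EB list (1174 bp). H3K4me1 and PRDM16 lists held 1 to 3 peaks on chromosome Y each, with no such order of the genotypes. These genes were singled out after their values were seen.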
